A study of Mus musculus with 2 samples.

Results

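The enzymes of glycolysis, of pyruvate metabolism and of the citric acid cycle were followed through the polyadenylated RNA of the mouse pancreas. The set holds 39 genes, chosen by symbol: every gene identifier of the deposited tables that the GENCODE annotation of GRCm38 gives to 1 of the 39 enzyme names was taken, and all 39 were found among 43346 genes. Of these, 17 belong to glycolysis from hexokinase to pyruvate kinase, 7 use the pyruvate that glycolysis makes, and 15 belong to the citric acid cycle or are the cytosolic counterparts of its enzymes. The rule uses symbols and no threshold on a value, but the enzymes were picked with earlier results of these data known. The pancreas came from 1 female mouse of strain C57BL/6J, an adult aged 10 weeks, for which the labels give no treatment and no altered gene. The labels call the 2 libraries technical replicates 1 and 2 of that sample, so no condition can be compared and the spread between them counts as technical. The labels do not say whether both came from the same RNA extraction, and an SD of these libraries may hold that difference too. RNA came from a lipid tissue extraction kit, and replicate 2 was made in May 2015. Genes were quantified as TPM, a read count divided by the effective length of the gene's transcripts and scaled to the same total in each library, so TPM can be compared between genes.

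Glycolysis splits glucose into pyruvate in the cytosol and yields a little ATP and NADH. Pyruvate is then reduced to lactate by lactate dehydrogenase, or enters the mitochondrion, where the pyruvate dehydrogenase complex turns it into acetyl-CoA and pyruvate carboxylase turns it into oxaloacetate. The citric acid cycle oxidises acetyl-CoA and passes the electrons to the respiratory chain. In the pancreas, acinar cells use this energy to make and secrete digestive enzymes. In the beta cells of the islets the same route is the glucose sensor: lactate dehydrogenase is known to be low there, and the ATP formed triggers insulin release.

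Expected counts, the read numbers that the quantifier assigned to genes, summed to 9441559 in replicate 1 and 9797569 in replicate 2, and the 39 enzyme genes received 9141 and 7048 of them. Mitochondrial genes, their nuclear copies and 3 further genes that were set apart with them (Gm42418, Gm26917 and Lars2), 51 genes in all, took 46.5% of TPM in replicate 1 and 44.1% in replicate 2. Within them the libraries differed widely: Gm42418 stood at 109600 and 331800 TPM, and the mitochondrial mt-Co2 at 26340 and 668 TPM. Markers checked the tissue label: all 7 acinar markers were at 1 TPM or more in both libraries and together held 9.26% and 13.5% of TPM. Of 5 beta cell markers 4 were detected in both libraries, at 1.70% and 2.14% of TPM, while Mafa was listed at 0 in replicate 1. The 3 alpha cell markers summed to 0.424% and 0.157%. None of 6 skeletal muscle markers reached 1 TPM in both libraries, and Myh4 had no count in either. In such whole tissue, fewer cells of a type and less RNA per cell cannot be told apart.

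Nearly the whole route was detected. At 1 TPM or more in both libraries were 35 of the 39 enzyme genes, against 10332 of all 43346 genes. The 4 that fell short were isoenzymes: Hk2, Hk3, Aldoc and Pklr. The median enzyme gene stood at 11.7 TPM in replicate 1 and 9.93 TPM in replicate 2, where the median of the 9964 protein-coding genes detected in both libraries was 4.99 and 4.16 TPM. In both libraries, 27 of the 39 enzyme genes lay above that median. The summed level was small all the same, at 0.0666% and 0.0542% of TPM. Glycolysis held 386 and 281 of these TPM, the pyruvate enzymes 71.9 and 71.4 TPM, and the citric acid cycle 208 and 190 TPM.

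**Figure D1:**
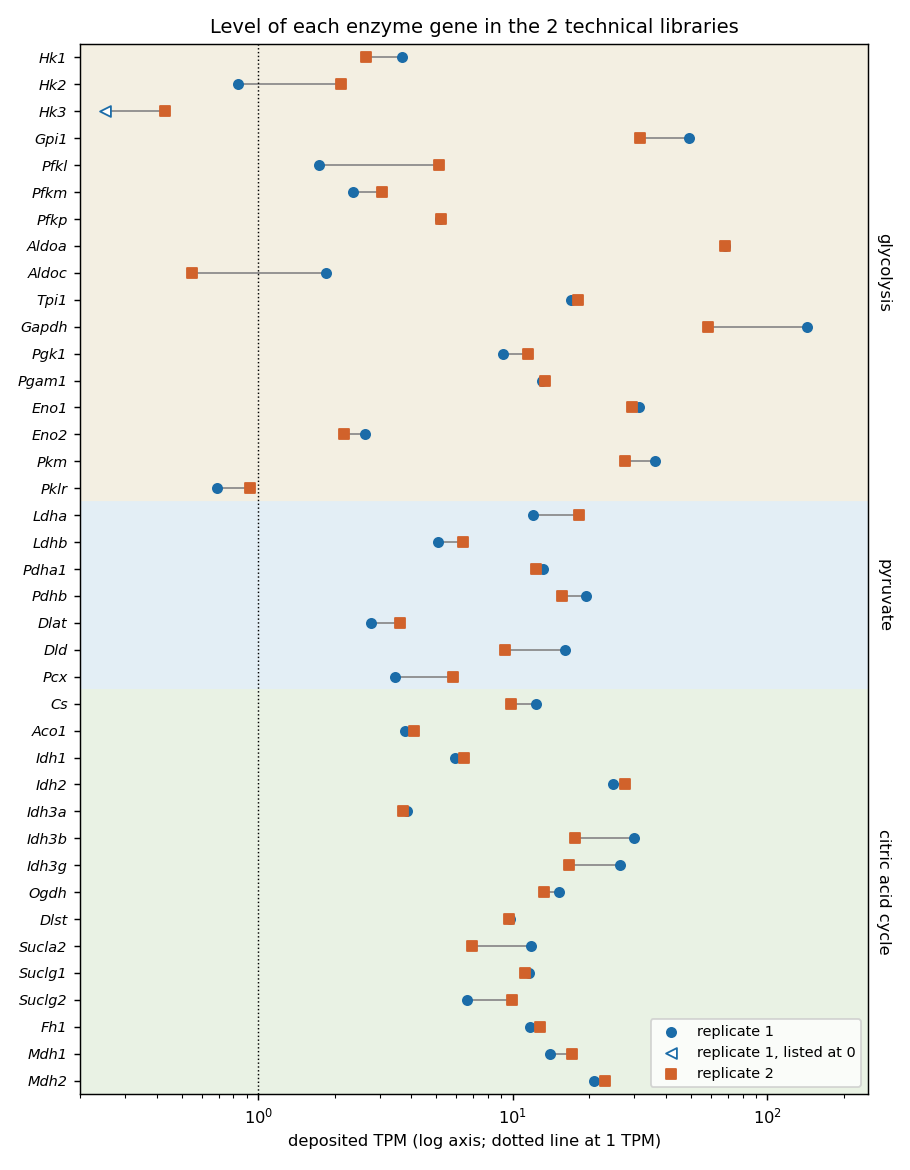
Deposited TPM of each of the 39 enzyme genes (log axis) in replicate 1 (circles) and replicate 2 (squares), ordered along the route and shaded by block, with a dotted line at 1 TPM; the grey line joins the libraries of a gene and the open triangle marks a gene listed at 0. Gapdh is highest at 143 TPM in replicate 1, Aldoa at 68.2 TPM is highest in replicate 2, and only isoenzymes of glycolysis fall left of the dotted line.

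Hexokinases trap glucose in the cell as glucose 6-phosphate. Hk1, the broadly expressed form, stood at 3.69 TPM in replicate 1 and 2.65 TPM in replicate 2, on 105 and 76 counts. Hk2, typical of muscle and adipose tissue, stood at 0.83 and 2.12 TPM, on 17 and 21 counts, and a 594-base transcript without a coding sequence held 61.5% and 82.1% of that TPM. Hk3 had 0 counts in replicate 1, where 3 counts, the limit that a count of 0 allows, would be 0.179 TPM, and 9 counts or 0.43 TPM in replicate 2. All 3 were therefore scarce, and their sums of 4.52 and 5.20 TPM were the lowest of any glycolytic step in the set by deposited TPM. In the deposited posterior mean TPM, which spreads some weight over unseen transcripts, Hk1 stood higher, at 9.60 and 9.14 TPM, and Hk2 at 1.40 and 2.63 TPM. On that estimate hexokinase was not the lowest step, since Hk1 alone stood above Pgk1 at 8.50 TPM in replicate 1. Hk1 was the most abundant of the 3 in both libraries and on both estimates. The related gene Hkdc1, no member of the set, had 5 and 8 counts. Shares of the whole hexokinase step are not given here.

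Glucose-6-phosphate isomerase (Gpi1), the next step, was far more abundant, at 49.1 and 31.7 TPM on 836 and 488 counts. Phosphofructokinase, the committed and most regulated step of glycolysis, brought the level down again. Its liver-type subunit Pfkl stood at 1.73 and 5.13 TPM, its muscle-type subunit Pfkm at 2.36 and 3.07 TPM, and its platelet-type subunit Pfkp at 5.17 and 5.21 TPM. In deposited TPM Pfkp thus matched between the libraries and Pfkl did not. On scaled counts, described below, Pfkp was higher in replicate 2, at a log2 ratio of 0.49 (interval 0.11 to 0.88). Its effective length was 2566 and 2981 bases. Pfkp held 55.8% of phosphofructokinase TPM in replicate 1 but 38.9% in replicate 2, where Pfkl reached 38.3%. Which subunit leads in replicate 2 is not resolved, since 117 counts stand against 108.

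Aldolase A (Aldoa), which splits fructose 1,6-bisphosphate, was abundant. Its deposited TPM was nearly the same in both libraries, 68.5 and 68.2 TPM (68.3 ± 0.205, SD of n = 2 technical libraries). On scaled counts its log2 ratio was 0.28 (interval 0.13 to 0.43). Aldoc, the brain form, had 26 and 11 counts. Of the TPM of these 2 genes together, Aldoa carried 97.4% and 99.2%. Triosephosphate isomerase (Tpi1) stood at 16.9 and 18.1 TPM, phosphoglycerate kinase (Pgk1) at 9.16 and 11.5 TPM and phosphoglycerate mutase (Pgam1) at 13.0 and 13.4 TPM. These enzymes act in sequence around Gapdh and lay within a range of 9.16 to 18.1 TPM. The other phosphoglycerate mutase, the muscle form Pgam2, had 2 counts in replicate 1 and 0 in replicate 2.

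Gapdh, which oxidises glyceraldehyde 3-phosphate and is often used as a reference gene, was the most abundant enzyme gene in replicate 1 and had the largest gap between libraries in absolute TPM. It stood at 143 TPM in replicate 1 and 58.3 TPM in replicate 2 (101 ± 59.8, SD of n = 2), and ranked 192 and 351 among all genes. Its counts, 983 and 518, differed less than its TPM. Part of the gap lay in how the reads were divided over its transcripts, and part remained with 1 fixed effective length for both libraries, at 116 and 69.8 TPM. A 565-base transcript with a retained intron (ENSMUST00000147954, Gapdh-206) was assigned 281 counts in replicate 1 and 5.24 in replicate 2. Because that transcript is short, these counts amounted to 79.8 and 1.69 TPM, and transcripts not annotated as protein-coding took 56.9% of Gapdh TPM in replicate 1 against 5.10% in replicate 2. The protein-coding Gapdh-203 had 52.4 and 34.7 TPM. Gapdh lies at chr6:125161715-125166467 (GRCm38, minus strand), and 69 near-identical copies of it elsewhere in the genome can share its reads. Only 10 of the copies were given counts, 26.6 in replicate 1 and 11.4 in replicate 2 in all.

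Enolase makes phosphoenolpyruvate. Eno1, the widely expressed form, stood at 31.3 and 29.5 TPM, 79.1% and 73.7% of enolase TPM. Eno3, the muscle form and no member of the set, came next with 14.3% and 20.9%, ahead of the neuronal form Eno2 at 6.64% and 5.45%. The skeletal muscle markers in the same libraries summed to 1.21 and 0.86 TPM, below the 5.67 and 8.36 TPM of Eno3. Eno1 has 2 near-identical copies, Eno1b and Gm4735, which were given 38.4 and 12.3 counts beside the 480 and 357 counts of Eno1, so its level is uncertain by that amount.

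Pyruvate kinase, the last step, was nearly all Pkm. It stood at 36.2 and 27.7 TPM (31.9 ± 6.01, SD of n = 2) and held 98.1% and 96.8% of pyruvate kinase TPM. Pklr, the liver and red cell gene, had 16 and 8 counts. Pkm makes 2 enzymes by choosing 1 of 2 adjacent exons: M1, the constitutively active form of muscle and brain, and M2, the form of proliferating and many adult tissues that fructose 1,6-bisphosphate activates. Both exons lie within Pkm (chr9:59656368-59679375, plus strand) and both are coding. Each has 167 bases, and they differ at 64 positions, which leaves 61.7% identity. They are printed because every read that tells M1 from M2 inside the coding region must touch them; capitals mark the bases at which the exons differ.
M1 exon, chr9:59675029-59675195: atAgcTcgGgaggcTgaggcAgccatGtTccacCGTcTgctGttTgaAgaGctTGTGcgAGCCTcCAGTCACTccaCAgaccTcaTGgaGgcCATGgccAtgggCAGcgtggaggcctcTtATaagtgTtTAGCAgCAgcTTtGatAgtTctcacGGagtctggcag
M2 exon, chr9:59675568-59675734: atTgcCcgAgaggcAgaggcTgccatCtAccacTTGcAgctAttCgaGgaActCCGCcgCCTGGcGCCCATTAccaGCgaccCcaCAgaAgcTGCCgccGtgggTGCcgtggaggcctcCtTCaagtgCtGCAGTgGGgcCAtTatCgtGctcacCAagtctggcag

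The M2 transcript (Pkm-201, ENSMUST00000034834) was assigned 386 counts in replicate 1 and 369 in replicate 2. The M1 transcript (Pkm-202, ENSMUST00000163694) was assigned 331 and 106 counts. M2 was estimated at 53.9% and 77.8% of Pkm TPM, and M1 made up the remaining 46.1% and 22.2%. The deposited posterior SD of these counts was 86.1 in replicate 1 and 23.6 in replicate 2. In replicate 1 the difference between the forms was smaller than that SD, so which form led there is not resolved; in replicate 2 the difference was larger. The total of the gene had a posterior SD of 0 in both libraries, so only the division between the forms was uncertain. The annotated transcripts also differ by 205 bases in their start, so not every read that separates them comes from the exons printed above.

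Lactate dehydrogenase interconverts pyruvate and lactate. Ldha, the subunit of glycolytic tissues, stood at 12.0 and 18.3 TPM, and Ldhb, the heart-type subunit, at 5.08 and 6.37 TPM. Ldha made up 70.2% and 74.2% of the step, and the testis form Ldhc had no counts in either library. Both genes were higher in replicate 2 in TPM. Ldhb had 49 counts in each library, and its log2 ratio on scaled counts, 0.48, had an interval across 0 (-0.12 to 1.08).

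The pyruvate dehydrogenase complex, the gate from glycolysis to the cycle, is built of E1, E2 and E3 subunits. Its E1 alpha and beta subunits stood at 13.1 and 12.4 TPM (Pdha1) and at 19.5 and 15.7 TPM (Pdhb). Dld, the E3 subunit that the complex shares with other dehydrogenases, stood at 16.0 and 9.35 TPM. Dlat, the E2 core subunit, was lowest at 2.78 and 3.60 TPM, on 94 and 61 counts. Pdhb thus stood 7.01-fold above Dlat in replicate 1 and 4.35-fold above it in replicate 2, and 4.22-fold and 2.74-fold in posterior mean TPM. With 1 fixed effective length for both libraries the ratio was 5.52 and 5.94, so there it did not fall in replicate 2. The protein-coding Dlat-201 stood at 2.78 TPM in replicate 1 and 1.8 TPM in replicate 2. The rest of Dlat TPM in replicate 2, 1.8 TPM on 8.49 counts, was Dlat-203, a 779-base transcript with a retained intron. Pdhx, the E3-binding protein and no member of the set, was also low at 1.76 and 2.54 TPM. Pyruvate carboxylase (Pcx), which refills the cycle, stood at 3.44 and 5.81 TPM on 119 and 174 counts.

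All 15 cycle genes were detected, between 3.72 and 29.8 TPM. Citrate synthase (Cs), which joins acetyl-CoA to oxaloacetate, stood at 12.4 and 9.83 TPM. Aco1, the cytosolic aconitase that also serves as an iron sensor, stood at 3.78 and 4.11 TPM on 121 and 114 counts. Among the NADP-dependent isocitrate dehydrogenases the mitochondrial Idh2, at 24.8 and 27.7 TPM, held 80.7% and 81.2%, and the cytosolic Idh1 stood at 5.94 and 6.42 TPM. Transcripts not annotated as protein-coding held 31.7% and 42.6% of Idh2 TPM. The protein-coding Idh2-201 stood at 16.9 and 15.9 TPM, still above Idh1. For malate dehydrogenase the mitochondrial Mdh2, at 20.8 and 23.1 TPM, led the cytosolic Mdh1, at 14.0 and 17.1 TPM. The Mdh2 lead rests on the shorter effective length of its transcripts, since its counts, 206 and 194, were below the 234 and 250 of Mdh1. In the 2 libraries 46.0% and 50.4% of Mdh2 TPM sat in transcripts not annotated as protein-coding. The protein-coding Mdh2-201 stood at 11.2 and 11.4 TPM, below the protein-coding Mdh1-201 at 13.6 and 16.8 TPM.

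The NAD-dependent isocitrate dehydrogenase, the rate-controlling isocitrate step of the cycle, combines a catalytic alpha subunit with beta and gamma subunits. The catalytic Idh3a was the scarce subunit, at 3.83 and 3.72 TPM on 75 and 63 counts. Idh3b stood at 29.8 and 17.5 TPM and Idh3g at 26.4 and 16.6 TPM. Idh3b exceeded Idh3a 7.79-fold and 4.71-fold, and Idh3g exceeded it 6.89-fold and 4.46-fold, in the same direction in both libraries. Both are shorter by effective length, at 1097 and 1418 bases for Idh3b, 1038 and 1152 for Idh3g, and 2240 and 2250 for Idh3a. With 1 fixed effective length for both libraries Idh3b exceeded Idh3a 6.81-fold and 5.3-fold, and Idh3g exceeded it 6.54-fold and 4.69-fold. Transcripts not annotated as protein-coding held 40.5% and 8.34% of Idh3b TPM, and 21.9% and 25.7% of Idh3g TPM. The protein-coding Idh3b-201 stood at 17.8 and 16.0 TPM and Idh3g-201 at 20.6 and 12.3 TPM, still above Idh3a.

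Ogdh and Dlst, the E1 and E2 subunits of the oxoglutarate dehydrogenase complex, stood at 15.2 and 13.3 TPM and at 9.80 and 9.65 TPM. Succinyl-CoA ligase makes a nucleoside triphosphate directly. Its alpha subunit Suclg1 stood at 11.6 and 11.2 TPM. Its beta subunit exists as Sucla2, which forms ATP, and Suclg2, which forms GTP, and these changed places between the libraries. Sucla2 stood at 11.8 TPM in replicate 1 and 6.92 TPM in replicate 2, on 208 and 95 counts. Suclg2 stood at 6.60 and 9.93 TPM, on 122 and 159 counts. The Sucla2 share of the beta subunits was therefore 64.1% and 41.1%, and no leading beta subunit can be named from these libraries. Fumarase (Fh1) stood at 11.7 and 12.8 TPM, but a 542-base transcript, Fh1-205, held 74.1% and 75.1% of that on 28.8 and 28.3 counts. The 2636-base Fh1-201 drew more counts, 45.6 and 59.8, and stood at 2.11 and 3.19 TPM.

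**Figure D2:**
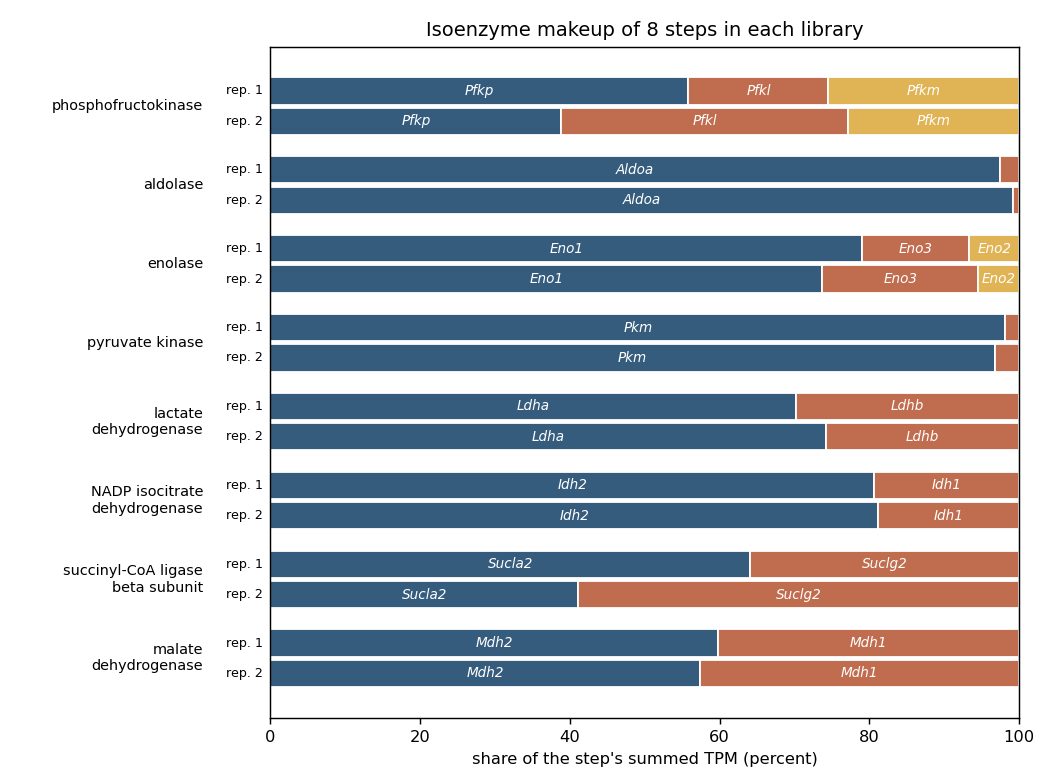
Share of each step's summed TPM (percent) held by each isoenzyme or alternative subunit gene in replicate 1 (upper bar) and replicate 2 (lower bar) of 8 steps; segments under 5% carry no name. Aldoa, Pkm, Eno1, Ldha, Idh2 and Mdh2 lead their steps in both libraries, while Sucla2 falls from 64.1% to 41.1% and Pfkl comes level with Pfkp in replicate 2. The lead of Mdh2 does not hold by counts or among protein-coding transcripts.

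The share of the main transcript was compared for 21 enzyme genes that averaged 100 counts or more. It differed by more than 20 percentage points between the libraries for 7 of them: Aldoa, Eno1, Idh3b, Ldha, Pcx, Pkm and Gapdh. For Ldha and Pcx the gap stayed under 20 points in posterior mean TPM. There the main transcript of Ldha held 79.4% and 61.5%, and that of Pcx 56.9% and 62.4%. By share of counts the gap stayed under 20 points for Gapdh and Idh3b instead. Gapdh-203 held 58.5% and 64.1% of Gapdh counts, and Idh3b-201 held 78.8% and 94.5% of Idh3b counts. The widest gap was in Aldoa (chr7:126795234-126800751). Its transcript Aldoa-201 (ENSMUST00000032934) held 37.2% in replicate 1 and 78.0% in replicate 2, and Aldoa-203 (ENSMUST00000106348) held 58.5% and 14.6%. Both have the same coding exons in GENCODE M21 and start 1193 bases apart. For Eno1 (chr4:150236721-150248879), Eno1-202 (ENSMUST00000080926), with 1302 coding bases, held 41.7% and 75.2%. Eno1-201 (ENSMUST00000080149), with 1098 coding bases, held 54.5% and 6.55%. For Idh3b (chr2:130279309-130284547), the full-length Idh3b-201 (ENSMUST00000028892) held 59.5% and 91.7%. A 452-base transcript annotated for nonsense-mediated decay, Idh3b-204, held 33.3% of Idh3b TPM in replicate 1 and 5.09% in replicate 2. The counts it drew were few, 25.1 and 2.01, and its short length turned them into a large share.

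**Figure D3:**
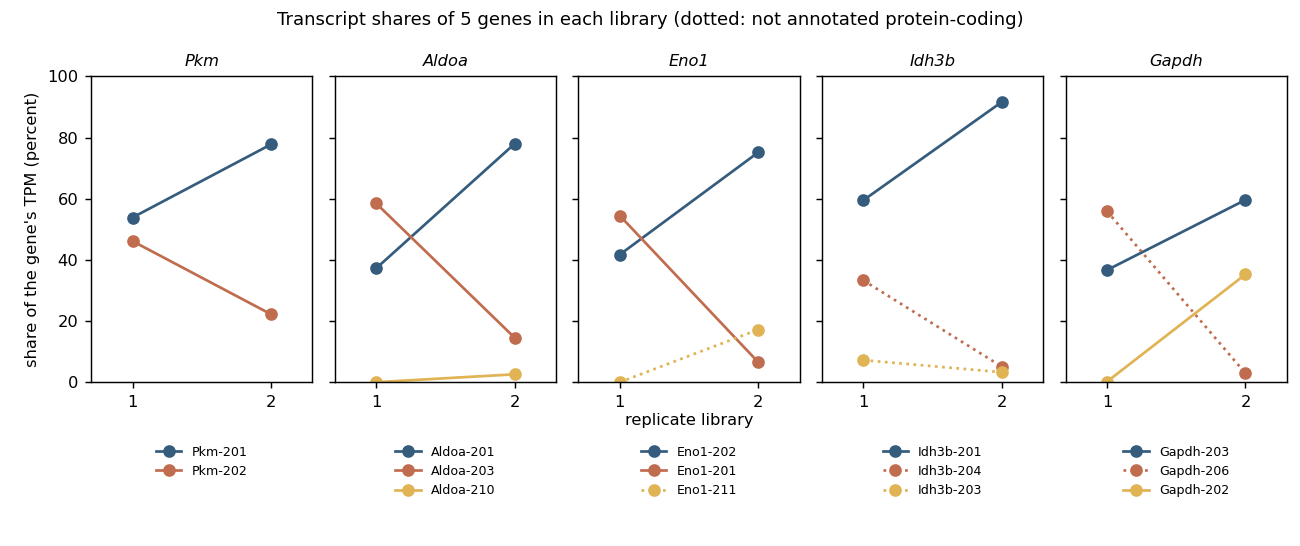
Share of the gene's TPM (percent) held by the 3 largest transcripts of Pkm (which has 2), Aldoa, Eno1, Idh3b and Gapdh in replicate libraries 1 and 2; solid lines are protein-coding transcripts and dotted lines other annotated types. By share of TPM the leading transcript changes between the libraries for Aldoa, Eno1 and Gapdh. By counts Gapdh-203 leads in both libraries, with 575 and 332. In replicate 1 Eno1-201 and Eno1-202 have 259 and 213 counts, with posterior SDs of 37.3 and 36.1.

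The libraries were then set against each other gene by gene, as the log2 ratio of counts in replicate 2 over replicate 1. Library totals were scaled by TMM, which takes the bulk of genes as the common level, and the exact 95% interval of each ratio covers counting error only. There is 1 library on each side, so the ratio compares libraries, not conditions, has no replicate check and carries no p-value. Of the 38 enzyme genes that averaged 10 counts or more, 2 were past 2-fold, both higher in replicate 2, and none was past 2-fold lower. That is 5.26% of them, where 14.5% of all 12445 genes tested were past 2-fold, 9.32% higher and 5.18% lower. The enzyme genes have more counts than many genes, and among the 7727 genes that averaged 50 counts or more, 8.40% were past 2-fold.

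Pfkl (chr10:77986947-78010083) was 1 of the 2, with 54 and 108 counts and a log2 ratio of 1.48 (interval 1.00 to 1.98). Pcx (chr19:4510472-4621752) was the other, with 119 and 174 counts and a log2 ratio of 1.03 (interval 0.69 to 1.38). Ldha at 0.94 (interval 0.63 to 1.26) and Suclg2 at 0.86 (interval 0.52 to 1.22) stood just inside the limit, so the threshold separates genes whose intervals overlap. Lowest were Aldoc at -0.72 (interval -1.92 to 0.31) and Sucla2 at -0.64 (interval -1.01 to -0.29). Gapdh was lower by -0.44 on counts (interval -0.60 to -0.29). Once its counts were divided by the effective length in each library, Gapdh stood at -1.02. Hk3, below the count minimum with 0 and 9 counts, had an exact interval that began at a log2 ratio of 1.46.

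The enzyme genes as a group lay slightly above the common level, with a median log2 ratio of 0.24 against -0.01 for all genes tested. Intervals lay above 0 for 15 of the 38 enzyme genes, below 0 for 4 and across 0 for 19. By block the median was 0.20 for 16 glycolytic genes, 0.19 for 7 pyruvate genes and 0.25 for 15 cycle genes. The group's offset moved with scaling: with plain library totals the median was -0.29, against -0.55 for all genes, and after a trend on GC content and transcript length was removed it was 0.10. With library totals neither Pfkl nor Pcx was past 2-fold. Some cell type markers also differed between the libraries: the median log2 ratio was 0.57 for 7 acinar markers and 0.62 for 4 tested beta cell markers. It was -0.71 for 2 tested alpha cell markers, -0.43 for 4 smooth muscle markers, -0.34 for 4 endothelial markers and -1.20 for 2 tested B cell markers. Medians were smaller in size for duct (0.01), fibroblast (0.05), macrophage (0.10), adipocyte (-0.02), hepatocyte (-0.09) and neuron and glia markers (-0.23). Lists were also mixed within: the acinar Cpa1 stood at -0.29 and the endothelial Plvap at 0.64. The summed TPM of 3 erythroid markers was 939 in replicate 1 and 2151 in replicate 2, while 1 of them, Alas2, stood at 8.34 and 5.57 TPM. Their part in the enzyme ratios was not tested.

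**Figure D4:**
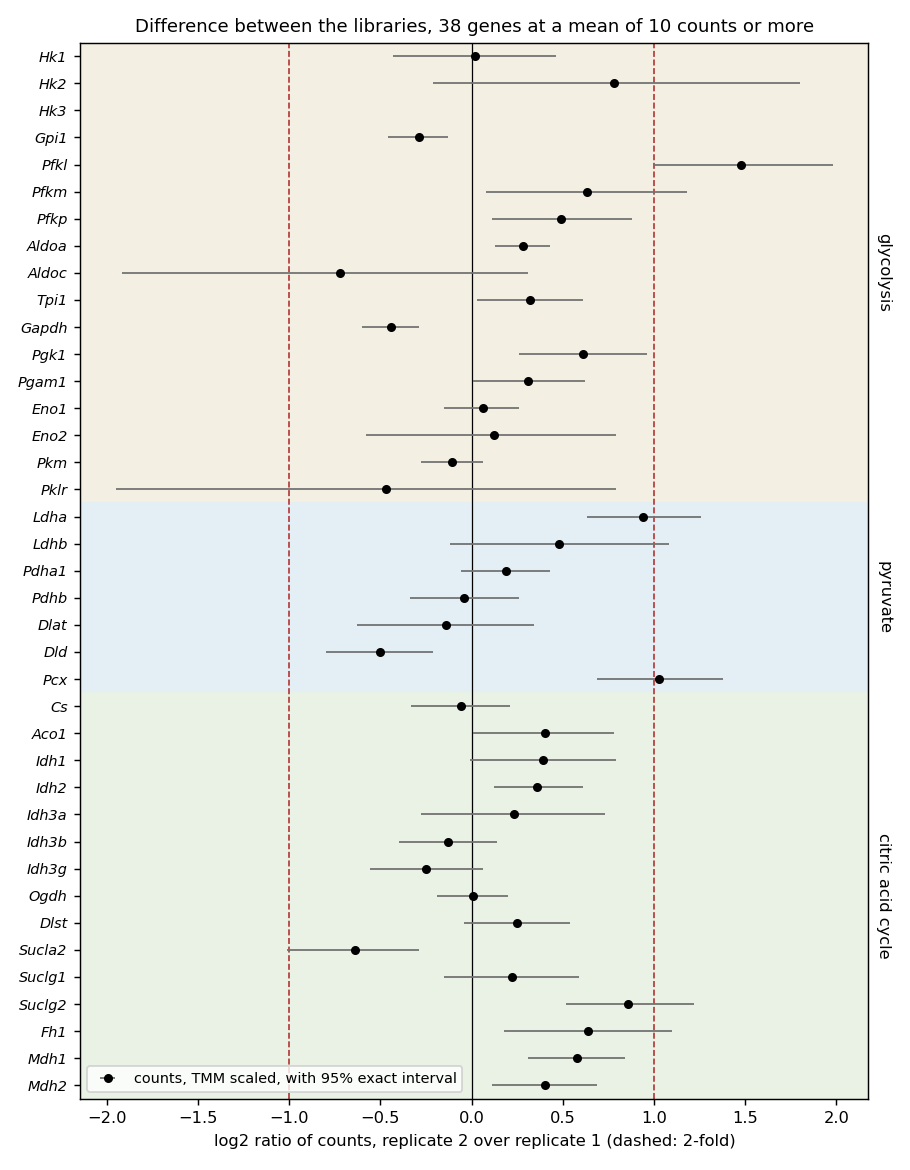
Log2 ratio of counts, replicate 2 over replicate 1, of the 38 enzyme genes tested (points) with exact 95% intervals (bars), by block; dashed lines mark 2-fold and the row of Hk3 is empty because it was below the count minimum. Points past the dashed lines are Pfkl at 1.48 and Pcx at 1.03.

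**Figure D5:**
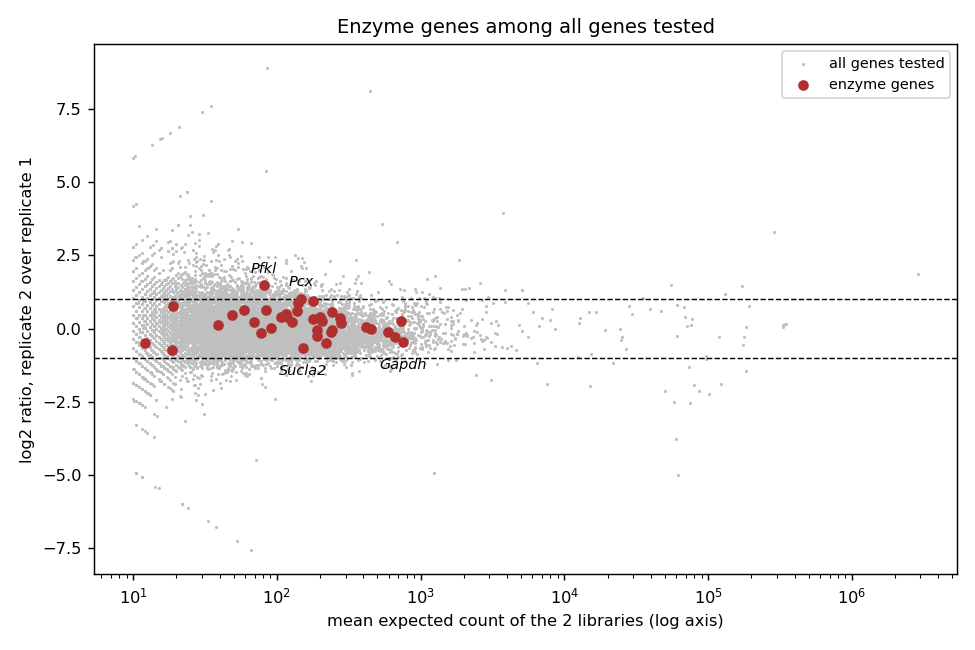
Log2 ratio of counts, replicate 2 over replicate 1, against the mean expected count (log axis) for all 12445 genes tested (grey) and the enzyme genes (red); dashed lines mark 2-fold. The enzyme genes lie between -0.72 and 1.48.

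The rest of the pathway was described from 6 lists of 64 further genes. Of 5 other citric acid cycle enzymes all 5 were at 1 TPM or more in both libraries. None of the 5 was past 2-fold, against 14.5% of all genes tested, but their median log2 ratio of 0.92 was just inside that limit. They include succinate dehydrogenase, the cycle enzyme that sits in the respiratory chain: Sdha stood at 16.0 and 20.3 TPM, Sdhb at 12.5 and 19.4 TPM. Of 10 other glycolytic isoenzymes 4 were detected and 4 had no count in either library: Eno4, Gapdhs, Pgk2 and Ldhc, which include testis forms. By the mean of both libraries the most abundant of this list were Eno3, given above, and Adpgk, an ADP-dependent kinase of glucose, at 7.05 and 4.93 TPM. Bpgm, which makes 2,3-bisphosphoglycerate, was highest in replicate 1, at 7.12 and 4.69 TPM.

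Regulators of phosphofructokinase and pyruvate dehydrogenase were detected for 10 of 13. Of the 10 tested, which are not all the same genes, none was past 2-fold, against 14.5% of all genes tested. The highest were Pdk2, a kinase that switches pyruvate dehydrogenase off, at 12.7 and 5.19 TPM, and Pfkfb2, which makes the activator of phosphofructokinase, at 5.25 and 3.26 TPM. Pdk2 stood just inside the 2-fold limit, at a log2 ratio of -0.99 (interval -1.40 to -0.60). Of 14 carriers 10 were detected and 3 of 13 tested were past 2-fold higher in replicate 2, against 9.32% of all genes tested. By the mean of both libraries the subunits of the mitochondrial pyruvate carrier led this list, Mpc1 at 20.6 and 16.3 TPM and Mpc2 at 8.57 and 25.2 TPM, and Mpc2 was 1 of the 3, beside Slc2a4 and Slc25a10. The glucose carrier of beta cells and liver, Slc2a2, stood at 8.37 and 8.36 TPM, above Slc2a1 at 2.67 and 2.22 TPM.

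Genes of gluconeogenesis and the shuttles were detected for 13 of 16, with 1 of 13 tested, Got1, past 2-fold higher, which is near the 9.32% of all genes tested. G6pc2, the glucose-6-phosphatase of islets, led at 43.4 and 39.3 TPM, above every hexokinase gene, and Acly, which splits exported citrate, followed at 23.8 and 20.9 TPM. The liver phosphatase G6pc had 2 counts in each library. Of 6 transcription factors of the pathway 5 were detected in both libraries and 1, Esrra, was past 2-fold higher, against 9.32% of all genes tested. Mlxipl, the glucose-responsive factor ChREBP, was highest at 17.1 and 16.3 TPM, and its partner Mlx stood at 11.9 and 8.17 TPM.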

How the data were processed

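Gene and transcript tables of both libraries were used. Per the deposited README files they rest on mm10 and GENCODE M4. The aligner and quantifier were not given in the sources used here. The authors deposited, per the file headers, an expected count, a TPM corrected for effective length, and a posterior mean TPM and posterior SD of the count, which were entered here as signal. GENCODE M21 (GRCm38) supplied symbols and positions (42462 of 43346 identifiers matched). Isoenzyme and transcript shares are shares of deposited TPM.

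Expected counts were rounded and library totals scaled by TMM (edgeR 4.0.16, R 4.3.3). The log2 ratio had 0.5 added to both counts and an exact Clopper-Pearson 95% interval, and was tested on simulated data. The comparison covered genes averaging 10 counts or more, and 2-fold was the limit. A count of 0 was bounded at 3 counts. Intervals cover counting error only. Reads sum to 9441559 and 9797569 expected counts, so a gene at 100 counts has a wide interval. BLAST+ 2.17.0 searched for copies of members (identity of 95% across 90% of the copy).

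All 39 members are named, as are the 2 most abundant genes of each pathway list, the genes of the isoenzyme families, and, for transcripts, Pkm and the 3 genes with the largest difference in main transcript share. Bpgm, Slc2a1, Slc2a2, G6pc, Pdhx, the pathway genes past 2-fold and the Gapdh, Hk2, Fh1 and Dlat transcripts were named after their values were seen. Members and lists were chosen with earlier results of these data known. The subunit ratios, and the isoenzyme whose share stands for each step, were chosen after seeing the data. Some isoenzymes of the pathway lists are not reported here, and lists and shares were computed without them. Alternatives covered scaling (library totals, DESeq2 1.42.0 size factors, upper quartile), count filters, posterior means, a GC and length trend, added counts, summed copies and effective length. Signal tracks were not used here.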

Additional observations from a re-analysis of the deposited data

How the results depend on the processing

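The count of enzyme genes past 2-fold was 2; it was 4 with library totals (Aldoc, Dld, Pklr and Sucla2, all lower), and 5 with counts divided by the effective length in each library (Hk2, Pcx and Pfkl higher, Aldoc and Gapdh lower), an alternative chosen after seeing the data. Without a count filter it was 3, with Hk3 added. With the GC and length trend removed it was again 2, Pfkl and Suclg2. The median log2 ratio of 0.24 became -0.29 with library totals, where all genes shifted by -0.54, and 0.10 with that trend removed; the cause was not tested. The other alternatives kept it between 0.21 and 0.27.

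The enzymes' share of TPM, 0.0604% on average, was 0.111% after the 51 set-apart genes were removed, by construction. With posterior mean TPM the mean isoenzyme share was 96.0% for Aldoa, 68.1% for Eno1, 91.6% for Pkm, 76.7% for Idh2 and 56.2% for Mdh2. With counts not divided by length it was 78.0% for Ldha, 71.9% for Idh2 and 45.3% for Mdh2, so the order of Mdh2 and Mdh1 turned. Of 39 member levels, 14 moved by more than the technical SD with posterior mean TPM. One fixed effective length per gene, also chosen after seeing the data, moved 1. Pfkl and Pcx kept their sign in every alternative run. Leaving out a library leaves no ratio, and for a level it gives the other library's value, which says nothing about stability. No paired analysis was possible because both libraries belong to 1 group. Depth limits Hk2, Hk3, Aldoc and Pklr, each under 30 counts per library.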
